A study of Mus musculus with 35 samples.

Results

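The bulk RNA-seq libraries of mural cells were set directly against those of endothelial cells, the 2 cell types that build the wall of small brain vessels. The libraries were taken by their labels, not by measured values, and are the 3 mural and the 3 endothelial libraries, 6 of the 12 bulk libraries and 6 of the 35 samples of the series. Both populations came from the brains of wild-type mouse embryos at E14.5, with a number in each library name that was taken to mark the brain (Mu-340, Mu-343 and Mu-346, and Ec-340, Ec-343 and Ec-346), and no allele, transgene or treatment was part of this comparison. Mural cells were sorted by FACS as cells with high PDGFRβ that lacked PECAM1, CD102, CD45, CD41 and CD11b. Endothelial cells were sorted as PECAM1+ CD102+ cells that lacked PDGFRβ, CD45, CD41 and CD11b. RNA of both was extracted with the Qiagen miRNeasy Micro kit, amplified with the SMART-Seq v4 Ultra Low Input kit and made into Nextera XT libraries. The microglia libraries share that chemistry, whereas the neural libraries were made with another kit. A gate collects every cell with its surface markers, so the mural libraries pool pericytes and smooth muscle cells from the whole brain and the endothelial libraries pool arteries, capillaries and veins. In such bulk libraries fewer cells of a type and less RNA per cell cannot be told apart, and the p-values measure the spread between the 3 libraries of each population.

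Mural cells, the pericytes of capillaries and the smooth muscle cells of larger vessels, wrap the endothelial tube and share a basement membrane with it. Endothelial cells recruit them by secreting PDGF-B, which binds PDGFRβ on the mural cell, while mural cells send angiopoietin-1 to the Tie2 receptor of the endothelium. Endothelial nitric oxide and endothelin act on mural cells to relax or contract the vessel. In the brain the endothelium also forms the blood-brain barrier, built from tight junctions and from transporters that carry nutrients into the tissue. The comparison asks which genes separate the 2 cell types and which they have in common.

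The mural libraries held 63107352, 25099023 and 27766404 reads assigned to genes, in the order of these numbers, and the endothelial libraries 17638358, 21088739 and 20627492. Between 19922 and 21768 genes had a value above 0 in each. All 16 mural markers tested were higher in mural cells and 15 of 16 endothelial markers in endothelial cells. The other, *Emcn*, was at the same level in both, and the call of *Icam2* was lost with DESeq2 on recovered reads (adjusted p = 0.0603). These counts include *Pdgfrb* among the mural and *Pecam1* and *Icam2* among the endothelial markers, whose proteins the gates select. The mural markers summed to 757085 to 823775 normalized counts in mural and 7925 to 12818 in endothelial libraries, and the endothelial markers to 271963 to 323048 in endothelial and 15273 to 22012 in mural libraries. Most of the mural sum was *Rgs5*. Without it, the 14 mural markers split over 10-fold reached 0.314% to 0.537% of their mural mean in endothelial libraries. The 12 split endothelial markers reached 1.47% to 1.81% of their endothelial mean in mural libraries. Mitochondrially encoded genes took 7.93% to 14% of the mural and 18.5% to 22.3% of the endothelial values, and 4 of their 13 protein-coding genes were called higher in endothelial cells (median log2 difference -1.12). Across genes, log2 values correlated at 0.854 to 0.888 within mural, 0.813 to 0.838 within endothelial and 0.643 to 0.715 between the populations, as a description.

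The genes that define the sort served as a check of the labels and are no finding. *Pdgfrb* (PDGFRβ) stood at 12456, 10874 and 15771 in the mural and 0, 0 and 16.6 in the endothelial libraries. *Pecam1* stood at 24233, 20178 and 16791 in the endothelial and 65.5, 50.2 and 38.5 in the mural libraries. *Icam2*, which encodes CD102, stood at 4410.3, 4268 and 4351 in the endothelial and 0, 131 and 0 in the mural libraries. *Itga2b* (CD41) was -3.01 ± 0.90 on the log2 scale (adjusted p = 0.0555), and *Ptprc* (CD45) and *Itgam* (CD11b) were too low in all 6 libraries to be tested.

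Of 53465 genes listed, 18876 had a mean normalized count of at least 10 and were tested with limma on log2(normalized count + 1). Differences are given as mural minus endothelial on that scale, with the standard error of the fit and n = 3 libraries for each population. A gene was called when its adjusted p was under 0.05 and the populations were more than 2-fold apart. By this rule mural cells were higher for 1425 genes (7.55% of those tested) and endothelial cells for 1617 (8.57%). A gene was taken as split when it also differed over 10-fold and its libraries did not overlap between the populations. There were 836 genes split toward mural cells (4.43%) and 834 toward endothelial cells (4.42%). No read was found in any endothelial library for 287 of the split mural genes, nor in any mural library for 199 of the split endothelial genes. The libraries of the populations did not overlap for 3437 genes toward mural (18.2%) and 3546 toward endothelial cells (18.8%). A gene was taken as shared when the 95% confidence interval of its difference lay wholly within 2-fold, which held for 2222 genes (11.8%). The remaining 13612 genes were neither called nor shown to be shared.

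**Figure D1:**
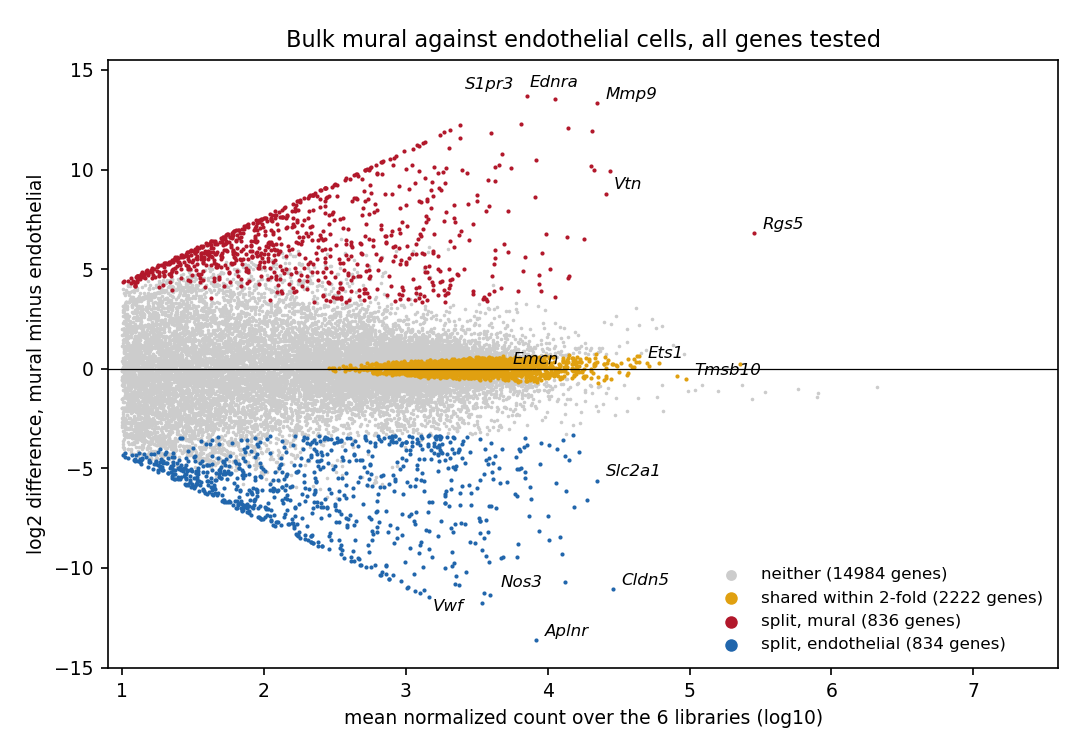
Log2 difference (mural minus endothelial) of all 18876 genes tested against the mean normalized count over the 6 libraries (log10); red and blue points are the 836 and 834 split genes, ochre points the 2222 shared ones and grey points the rest. The slanted outer edges are genes at 0 in the other population, and shared genes appear only above about 100 normalized counts, where the error is small.

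How finely a gene could be placed depended on its level. Among 6807 genes with a mean of 10 to 100 the median standard error was 1.52, and none could be shown to be shared while 9.67% were called. Among 5110 genes of 1000 to 10000 it was 0.278, with 35.8% shared and 22.3% called, and among the 298 genes over 10000 it was 0.164, with 46.6% shared. With library Mu-340, the deepest, left out, the mural calls fell to 769 and the split mural genes to 502. Without library Mu-343 there were 896 mural calls, and without library Mu-346 there were 831 mural calls and 508 split mural genes. edgeR on the whole reads recovered from the table called 1077 mural and 1201 endothelial genes, with 573 and 544 split.

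The 15 protein-coding genes with the largest split toward mural cells, ranked by log2 difference, carried receptors, channels and matrix proteins. *S1pr3*, a receptor for sphingosine 1-phosphate (chr13:51408639-51422797 of GRCm38), stood at 12547, 8786 and 21834 in the mural and 0, 0 and 0 in the endothelial libraries. Taking 3 reads over the 3 libraries as the floor for a population without reads, it was at least 9266-fold higher in mural cells (adjusted p = 2.8e-05). Where a population held 1 to 3 reads, its level in the fold was those reads over the summed depth of its 3 libraries, so that the fold can differ from the ratio of the mean values printed. *Ednra*, the endothelin A receptor, stood at 23093, 20036 and 23904 in the mural and 1.77, 1.42 and 0 in the endothelial libraries, which is 21583-fold higher in mural cells with a 95% counting interval of 5975 to 178219 (adjusted p = 2.4e-05). *P2ry14*, a receptor for UDP-sugars, stood at 4859.6, 4117 and 5377 in the mural and 0, 0 and 0 in the endothelial libraries. For all 3 receptors the endothelial libraries held no more than a few reads. *Mmp9*, a gelatinase that degrades basement membrane collagen, was as high, with 35235, 36159.9 and 62279 in the mural and 0, 0 and 69.4 in the endothelial libraries and a log2 difference of 13.35 ± 1.52 (adjusted p = 0.00121). Only library Ec-346 held reads of it.

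Other genes among the 15 act on potassium or cyclic nucleotides. *Kcnj8*, the pore subunit of a vascular ATP-sensitive potassium channel, stood at 41847, 38245 and 43207 in the mural and 0, 1.42 and 451 in the endothelial libraries. *Kcne4*, an accessory subunit of potassium channels, was at least 2405-fold higher in mural cells, adjusted p = 7.2e-05, and *Pde3a*, a phosphodiesterase that breaks down cyclic AMP, was at least 2617-fold higher in mural cells, adjusted p = 7.0e-05. The matrix genes were *Col1a2*, a chain of type I collagen, which was at least 2234-fold higher in mural cells, adjusted p = 7.5e-05, and *Postn*, the matricellular protein periostin, which was at least 1544-fold higher in mural cells, adjusted p = 9.9e-05. Neither had a read in an endothelial library. *Sdc2*, a heparan sulphate proteoglycan of the cell surface, stood at 8823, 5707 and 9248 in the mural and 0, 8.52 and 0 in the endothelial libraries. *Slc2a3*, the glucose transporter GLUT3, was at least 1766-fold higher in mural cells, adjusted p = 9.4e-05, on the opposite side to *Slc2a1*, which encodes GLUT1 (-5.62 ± 0.28, adjusted p = 5.2e-05). The others were *Pdgfrb* itself, the protocadherin *Pcdh18* (12.07 ± 1.54, adjusted p = 0.00192), the small GTPase *Rasl12* (4672-fold higher in mural cells with a 95% counting interval of 1293 to 38582, adjusted p = 1.1e-04) and the membrane protein *Vstm4* (at least 1693-fold higher in mural cells, adjusted p = 9.6e-05). In the endothelial libraries *Pcdh18* stood at 0, 1.42 and 107. Libraries at 0 widen a log2 difference, and the ratio of means was 770-fold for *Pcdh18* and 273-fold for *Kcnj8*.

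The 15 genes of the largest split toward endothelial cells held the apelin pair. *Aplnr*, the apelin receptor, stood at 12079, 21832 and 15875 in the endothelial and 0, 1.14 and 0 in the mural libraries, 70190.1-fold higher in endothelial cells with a 95% counting interval of 12598 to 2772360.0 (adjusted p = 2.8e-05). *Apln*, its ligand, stood at 3037, 5739 and 4485 in the endothelial and 0, 5.71 and 0.940 in the mural libraries, with a log2 difference of -10.83 ± 0.82 (adjusted p = 2.2e-04). Both were thus nearly without reads in mural cells. *Nos3*, the endothelial nitric oxide synthase, stood at 4899, 12589.6 and 5932 in the endothelial and 0.440, 1.14 and 5.64 in the mural libraries, and *Ptgis*, which makes prostacyclin, was at least 4091-fold higher in endothelial cells, adjusted p = 9.4e-05. Each of the 3 endothelial libraries lay far above the mural ones for both enzymes. *Vwf*, the clotting factor that endothelial cells store, was -11.74 ± 0.67, adjusted p = 7.8e-05.

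Others of these 15 encode a claudin, transporters and a guidance receptor. *Cldn5*, the main claudin of brain tight junctions, stood at 57543, 51368 and 64664 in the endothelial and 126, 0 and 147 in the mural libraries, with a log2 difference of -11.08 ± 1.72 (adjusted p = 0.00453). It had no read in library Mu-343 and over 100 normalized counts in the other two, and its error was wide although the groups did not overlap. *Slc38a3*, a glutamine transporter, was -11.27 ± 0.76, adjusted p = 1.4e-04, and *Flvcr2*, a transporter of the brain endothelium, was at least 2923-fold higher in endothelial cells, adjusted p = 1.5e-04. *Robo4*, an endothelial guidance receptor, was -10.84 ± 1.10, adjusted p = 7.2e-04. Genes of intracellular signalling were *Arhgap25*, which inactivates Rac (at least 3271-fold higher in endothelial cells, adjusted p = 1.1e-04), the PI3-kinase regulatory subunit *Pik3r6* (at least 3535-fold higher in endothelial cells, adjusted p = 1.1e-04) and *Ccm2l*, a relative of the cavernoma gene *Ccm2* (7876-fold higher in endothelial cells with a 95% counting interval of 1414 to 311072, adjusted p = 1.5e-04). *Myct1* (5716-fold higher in endothelial cells with a 95% counting interval of 1582 to 47201, adjusted p = 1.1e-04), the acyltransferase *Mogat2* (at least 2878-fold higher in endothelial cells, adjusted p = 1.2e-04) and the proteoglycan *Spock2* (-10.70 ± 0.87, adjusted p = 2.9e-04) completed the 15. Microglia also held *Arhgap25* and *Pik3r6*. The mean of *Arhgap25* was 7804 in microglia and 2320 in endothelial libraries, and that of *Pik3r6* 1381 and 2507.

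Promoter windows are shown for split genes of each side and for a shared gene and were searched for AGGAAG, a core that ETS factors bind, because such factors are among the regulators described below. Each is the 250 bases before the start in RefSeq on GRCm38.p6, written 5′ to 3′ on the gene's strand, with AGGAAG or its reverse complement CTTCCT in capitals. The core was searched on both strands as these letters alone, and 29.5% of 32817 such windows in that table hold it. The first 2 ranked genes with a window were searched among the split genes of each side and among the shared genes above microglia. The *Ednra* window (chr8:77724453-77724702, minus strand) has 2 matches, at -198 and -115, and the *Arhgap25* window (chr6:87533260-87533509, minus strand) has 2, at -45 and -30. The windows of the split genes *S1pr3* (chr13:51408368-51408617, plus strand) and *Myct1* (chr10:5593478-5593727, plus strand) and of the shared genes *Igfbp7* (chr5:77408046-77408295, minus strand) and *Tmsb10* have 0. A match describes the letters only.

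Ednra: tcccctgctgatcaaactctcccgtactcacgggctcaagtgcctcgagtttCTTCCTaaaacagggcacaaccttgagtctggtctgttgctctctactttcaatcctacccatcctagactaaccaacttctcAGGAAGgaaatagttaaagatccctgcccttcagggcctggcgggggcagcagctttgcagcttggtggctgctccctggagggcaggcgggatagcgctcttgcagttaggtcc

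S1pr3: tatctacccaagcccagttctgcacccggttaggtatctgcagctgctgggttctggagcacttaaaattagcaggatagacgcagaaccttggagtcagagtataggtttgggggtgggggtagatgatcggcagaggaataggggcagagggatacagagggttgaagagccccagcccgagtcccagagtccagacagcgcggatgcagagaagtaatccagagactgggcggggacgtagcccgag

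Arhgap25: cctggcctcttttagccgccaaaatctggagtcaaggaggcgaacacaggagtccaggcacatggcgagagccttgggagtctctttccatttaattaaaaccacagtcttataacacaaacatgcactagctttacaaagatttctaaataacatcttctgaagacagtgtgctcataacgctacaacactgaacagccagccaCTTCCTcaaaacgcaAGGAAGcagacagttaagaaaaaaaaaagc

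Myct1: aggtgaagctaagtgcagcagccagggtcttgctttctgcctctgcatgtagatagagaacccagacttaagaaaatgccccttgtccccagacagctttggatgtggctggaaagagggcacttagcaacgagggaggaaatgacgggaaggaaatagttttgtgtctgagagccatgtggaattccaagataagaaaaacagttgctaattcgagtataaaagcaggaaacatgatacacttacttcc

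Igfbp7: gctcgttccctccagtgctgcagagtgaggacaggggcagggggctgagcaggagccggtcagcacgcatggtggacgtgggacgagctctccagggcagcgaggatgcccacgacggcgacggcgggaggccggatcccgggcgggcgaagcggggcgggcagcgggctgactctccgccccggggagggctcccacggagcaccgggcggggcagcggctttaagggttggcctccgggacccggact

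Many split genes were also expressed in other cells of the brain. Of the 836 split mural genes, 448 were higher in each mural library than in all 9 other bulk libraries, and of the 834 split endothelial genes 516 were so. The mean of microglia or neural libraries exceeded that of the higher vessel population for 277 mural and 184 endothelial split genes. Neural libraries accounted for 221 and 79 of these, with the other kit, and microglia for 83 and 114.

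Signals that set vessel tone were divided between the cells, the called makers being endothelial and the called responders mural. Of 16 such genes tested, 11 were higher in mural and 3 in endothelial cells, with a median difference of 7.72, against -0.0039 over all genes. This list, like those below, was chosen with earlier results of these data known and holds genes named above for their split. Its counts and median are therefore a description. For this and the later lists, the shares over all genes tested were 7.55% higher in mural and 8.57% in endothelial cells. Of the makers, *Nos3* is given above. *Edn1*, the precursor of endothelin-1, stood at 2158, 1933 and 1484 in the endothelial and 0, 47.9 and 2.82 in the mural libraries (-8.33 ± 1.31, adjusted p = 0.00476), and *Ece1*, which cleaves it, was -2.67 ± 0.23, adjusted p = 3.4e-04. All 3 endothelial libraries were above the mural ones for both genes. Of the responders, *Gucy1a1* and *Gucy1b1*, the subunits of the nitric oxide receptor guanylate cyclase, were 10.50 ± 1.83, adjusted p = 0.00726 and 8.63 ± 1.22, adjusted p = 0.00303. *Gucy1a1* stood at 15929, 16588 and 16731 in the mural and 3.54, 0 and 321 in the endothelial libraries. *Pde5a*, which degrades the cyclic GMP formed by it, was 3.49 ± 0.25, adjusted p = 1.9e-04. *Abcc9*, the partner of *Kcnj8* in the potassium channel, was 10.20 ± 1.40, adjusted p = 0.00269, and *Rgs4*, a regulator of G-protein signalling, was 9.95 ± 1.58, adjusted p = 0.00487. *Rgs5*, of the same family, stood at 548316, 557899 and 579164 in the mural and 6872, 3469 and 5212 in the endothelial libraries (6.81 ± 0.22, adjusted p = 1.4e-05). The other endothelin receptor, *Ednrb*, was not called (2.73 ± 1.28, adjusted p = 0.190), nor was the angiotensin receptor *Agtr1a*, which had reads in mural libraries alone (80.0, 1.14 and 66.7, adjusted p = 0.108).

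**Figure D2:**
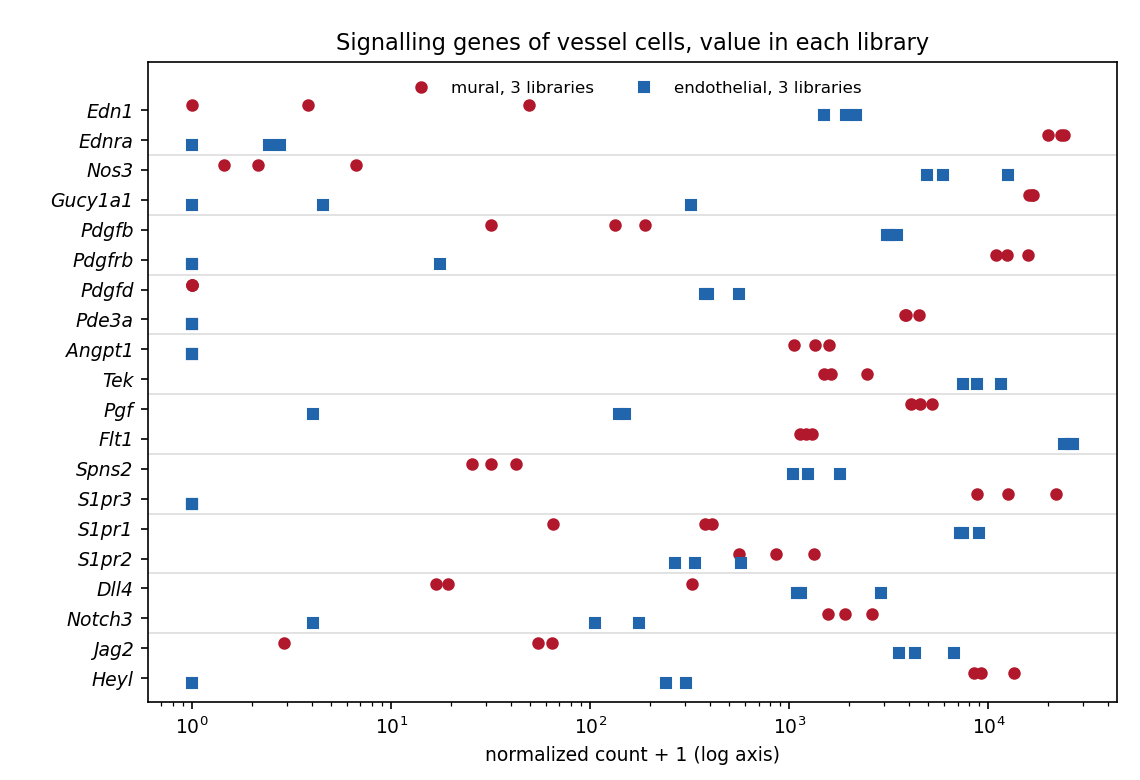
Normalized counts of signalling genes in each of the 3 mural and 3 endothelial libraries, on a log10 scale after adding 1. Points are single libraries. Mural libraries are high for *Ednra*, *Gucy1a1* and *Pde3a* and endothelial libraries for *Nos3* and *Edn1*, without overlap.

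Ligands and receptors by which the cells address each other were called on both sides. Of 5 PDGF genes tested 2 were higher in each population, the mural ones being the sort marker *Pdgfrb* and *Pdgfa* (median -0.36), of 5 angiopoietin and Tie genes 1 was higher in mural and 4 in endothelial cells (median -5.18), and of 9 VEGF genes 1 was higher in mural and 4 in endothelial cells (median -4.08). *Pdgfb*, the ligand that recruits mural cells, stood at 3092, 3188 and 3475 in the endothelial and 187, 30.8 and 131 in the mural libraries (-5.13 ± 0.64, adjusted p = 0.00177), opposite its receptor *Pdgfrb*. *Pdgfd*, another ligand of that receptor, stood at 377, 556 and 389 in endothelial libraries and had no mural read (at least 622-fold higher in endothelial cells, adjusted p = 6.5e-04). *Pdgfa*, the ligand of the other PDGF receptor, was higher in mural cells (2.41 ± 0.61, adjusted p = 0.0326), a call lost with edgeR (adjusted p = 0.0603) and without library Mu-340 (adjusted p = 0.104), library Mu-343 (adjusted p = 0.112), library Mu-346 (adjusted p = 0.0844) or library Ec-346 (adjusted p = 0.0787). In return *Angpt1*, the agonist of Tie2, stood at 1347, 1058 and 1579 in mural libraries and had no endothelial read (at least 855-fold higher in mural cells, adjusted p = 2.0e-04). Its receptor *Tek* (Tie2) was higher in endothelial cells but present in both, at 7483, 11566 and 8755 in the endothelial and 1610.1, 1495 and 2452 in the mural libraries (-2.33 ± 0.26, adjusted p = 0.00100). *Tie1* (-7.37 ± 0.97, adjusted p = 0.00216) and *Ptprb*, the phosphatase that acts on Tie2 (-5.18 ± 0.46, adjusted p = 3.9e-04), were split toward endothelial cells. Of the VEGF receptors, *Kdr* (-6.57 ± 0.30, adjusted p = 3.2e-05), *Flt1* (-4.40 ± 0.14, adjusted p = 1.4e-05) and *Flt4* (-4.50 ± 0.37, adjusted p = 3.1e-04) were all split toward endothelial cells, as was the co-receptor *Nrp2* (-4.08 ± 0.44, adjusted p = 9.7e-04), whereas *Nrp1* was shared (0.27 ± 0.19). *Pgf*, a ligand of *Flt1*, was on the mural side, at 5228, 4099.8 and 4522 in the mural and 149, 139 and 3.02 in the endothelial libraries (6.71 ± 1.29, adjusted p = 0.0109). Its call was lost without library Mu-340 (adjusted p = 0.0541). *Vegfa*, the main VEGF ligand, was low in both and not called (2.75 ± 0.92, adjusted p = 0.0816).

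Receptors for sphingosine 1-phosphate differed by subtype. *S1pr1* was endothelial, at 7179.8, 8961 and 7476 in the endothelial and 377, 63.9 and 406 in the mural libraries (-5.19 ± 0.67, adjusted p = 0.00199), opposite to *S1pr3*. *Spns2*, the transporter that exports the lipid, was endothelial as well (-5.35 ± 0.48, adjusted p = 4.2e-04), and *S1pr2* was not called (1.21 ± 0.46, adjusted p = 0.115). *Cxcl12*, a chemokine, was higher in endothelial cells (-2.89 ± 0.32, adjusted p = 0.00103), and its receptors *Cxcr4* (-1.42 ± 0.52, adjusted p = 0.104) and *Ackr3* (2.14 ± 1.08, adjusted p = 0.217) were not called. Over the 11 chemokine and lysophospholipid genes 1 was higher in mural and 4 in endothelial cells, with a median of -0.76. Of 12 genes of the IGF family and of heparin-binding growth factors, 5 were higher in mural and 4 in endothelial cells, with a median of -0.28. The ligand *Igf2* (3.80 ± 0.42, adjusted p = 0.00107) and the receptor *Igf2r*, which clears it (1.60 ± 0.33, adjusted p = 0.0140), were mural, and the receptors *Igf1r* (-2.91 ± 0.28, adjusted p = 5.9e-04) and *Insr* (-1.68 ± 0.27, adjusted p = 0.00480) were endothelial. The *Igf2r* call was lost without library Mu-340 (adjusted p = 0.0643), library Mu-343 (adjusted p = 0.05005) or library Mu-346 (adjusted p = 0.0548). In the same list the heparin-binding factors *Ptn* (5.01 ± 0.26, adjusted p = 6.4e-05) and *Mdk* (2.56 ± 0.36, adjusted p = 0.00303) were mural, with *Ptn* at 18458, 20869 and 20921 in the mural and 452, 891 and 594 in the endothelial libraries. Of the binding proteins, *Igfbp5* was mural (4.93 ± 0.70, adjusted p = 0.00303), *Igfbp3* endothelial (-6.15 ± 0.93, adjusted p = 0.00400) and *Igfbp7* shared (-0.14 ± 0.27).

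Notch genes were called in both directions, 4 of 14 in each, with a median of 0.39. The receptor *Notch2* was mural, at 925, 848 and 842 in the mural and 188, 76.7 and 184 in the endothelial libraries (2.64 ± 0.47, adjusted p = 0.00763), and *Notch4* endothelial (-2.78 ± 0.56, adjusted p = 0.0128). *Notch3*, the mural receptor, was 5.55 ± 1.30, adjusted p = 0.0243, and its call was lost without library Mu-340 (adjusted p = 0.0876), library Mu-343 (adjusted p = 0.0802) or library Mu-346 (adjusted p = 0.0856). The Notch target *Heyl* stood at 9133, 8483 and 13444 in the mural and 0, 238 and 303 in the endothelial libraries (7.92 ± 1.97, adjusted p = 0.0303), and its call was lost without library Mu-340 (adjusted p = 0.0990), library Mu-343 (adjusted p = 0.0981) or library Mu-346 (adjusted p = 0.0959). Their groups did not overlap, and both genes had 1 endothelial library near or at 0 beside others above 100. Of the ligands, *Jag2* was endothelial, at 3556, 6727 and 4273 in the endothelial and 63.4, 53.6 and 1.88 in the mural libraries (-7.76 ± 1.13, adjusted p = 0.00343), whereas *Jag1* (0.25 ± 0.30) and the target *Hes1* (0.53 ± 0.16) were shared within 2-fold.

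In the TGF-β pathway 2 of 17 genes were higher in mural and 7 in endothelial cells (5 with a block for the brain), with a median of 0.28. *Eng*, the co-receptor endoglin, stood at 18059, 27511 and 19002 in the endothelial and 2930.1, 2719.9 and 4777 in the mural libraries (-2.65 ± 0.26, adjusted p = 6.0e-04), and the receptor *Tgfbr2* was -2.48 ± 0.32, adjusted p = 0.00199. The ligand *Tgfb1* was -1.50 ± 0.31, adjusted p = 0.0150, with an adjusted p of 0.0552 with a block for the brain and 0.0568 without library Mu-340. *Itgav*, an integrin subunit that activates TGF-β, was mural (3.07 ± 0.35, adjusted p = 0.00124). *Smad3* (-3.11 ± 0.57, adjusted p = 0.00881) and the inhibitor *Smad7* (-2.86 ± 0.51, adjusted p = 0.00829) were endothelial. In the BMP pathway 2 of 13 were higher in each population (1 in endothelial cells with a block for the brain), with a median of -0.13. Over all genes tested the shares were 7.55% mural and 8.57% endothelial, and a difference of this short list from them was not tested. The ligand *Bmp5* was confined to mural libraries among these 6 but for 1 read, at 1462, 1010.1 and 1289.6 in the mural and 1.77, 0 and 0 in the endothelial libraries (2422-fold higher in mural cells with a 95% counting interval of 435 to 95668, adjusted p = 3.1e-04), and its receptor subunit *Bmpr1a* was mural too (3.52 ± 0.51, adjusted p = 0.00331). *Bmpr2* (-0.30 ± 0.20) and the target *Id3* (0.01 ± 0.18) were shared.

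Wnt signalling drives barrier formation in the brain endothelium. Of 14 receptors and targets none was higher in mural and 7 were higher in endothelial cells, with a median of -1.27. *Lef1*, a transcription factor and target of the pathway, stood at 4593, 6412 and 4787 in the endothelial and 529.6, 91.3 and 462 in the mural libraries (-4.20 ± 0.64, adjusted p = 0.00401). The target *Nkd1* (-2.58 ± 0.28, adjusted p = 0.00100) and the receptor *Fzd6* (-1.70 ± 0.34, adjusted p = 0.0123) were also endothelial. *Axin2*, used widely as a target, was not called (0.70 ± 0.29, adjusted p = 0.144), and the co-receptor *Tspan12* was shared (0.51 ± 0.14).

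Tight junction genes were mostly endothelial. Of 12 tested, 10 were higher in endothelial and 1 in mural cells, with a median of -2.38. *Lsr*, a component of tricellular junctions, stood at 1635, 5787 and 3059 in the endothelial and 37.6, 3.42 and 20.7 in the mural libraries (-7.63 ± 0.88, adjusted p = 0.00125). Adhesion molecules of the JAM family fell on both sides, with *Jam2* (-4.04 ± 0.51, adjusted p = 0.00182) and *F11r* (-2.92 ± 0.46, adjusted p = 0.00485) endothelial and *Jam3* mural, at 1192, 1278 and 1568 in the mural and 168, 165 and 265 in the endothelial libraries (2.77 ± 0.36, adjusted p = 0.00198). The scaffold *Tjp1* was present in both at a smaller difference (-1.37 ± 0.15, adjusted p = 9.0e-04), and *Cldn12* was not called (-0.00 ± 0.56, adjusted p = 0.997). Among 12 adherens and gap junction genes, 3 were higher in mural and 2 in endothelial cells, with a median of -0.81. The cadherins divided into *Cdh5* of the endothelium (-9.50 ± 1.08, adjusted p = 0.00116) and *Cdh11* (3.74 ± 0.20, adjusted p = 7.0e-05) and *Cdh6* (7.73 ± 1.30, adjusted p = 0.00634) of mural cells, and the connexins into *Gja1* (-3.47 ± 0.22, adjusted p = 1.1e-04) and *Gjc1* (3.60 ± 0.14, adjusted p = 1.9e-05), the latter at 20436, 21609.7 and 20246 in the mural and 1798, 1652 and 1674 in the endothelial libraries. *Cdh2*, N-cadherin, which can join the 2 cell types, was present in both and not called, at 5338, 4696 and 6281 in the mural and 8514, 11989 and 9010.0 in the endothelial libraries (-0.85 ± 0.19, adjusted p = 0.0194).

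No barrier transporter was higher in mural cells, and 14 of 18 were higher in endothelial cells, with a median of -3.90. *Slc2a1*, which brings glucose into the brain, stood at 40547, 47887 and 42824 in the endothelial and 764, 656 and 1395 in the mural libraries. *Mfsd2a*, which carries lipids that contain omega-3 fatty acids, stood at 5668, 8034 and 6923 in the endothelial and 80.4, 0 and 22.5 in the mural libraries (-9.10 ± 1.42, adjusted p = 0.00457). *Abcb1a*, the efflux pump P-glycoprotein, had no read in libraries Mu-340 and Mu-343 (-9.26 ± 1.54, adjusted p = 0.00603). The amino acid carriers *Slc7a5* (-4.20 ± 0.36, adjusted p = 3.6e-04) and *Slc38a5* (-8.47 ± 0.43, adjusted p = 5.9e-05), the thyroid hormone carrier *Slco1c1* (-8.50 ± 0.86, adjusted p = 6.9e-04) and the receptor *Lrp8* (-7.41 ± 0.43, adjusted p = 8.2e-05) were split as well. *Slc22a8*, an organic anion transporter, was expressed in both and not called, at 3955, 5154 and 4662 in the endothelial and 2193, 3113 and 4521 in the mural libraries (-0.54 ± 0.28, adjusted p = 0.223), nor was the lactate carrier *Slc16a1* (0.22 ± 1.04, adjusted p = 0.908). Of 7 genes of caveolae and transcytosis, 5 were higher in endothelial and none in mural cells, with a median of -2.37. *Plvap*, which forms the diaphragms of leaky vessels, differed between endothelial libraries, at 1834, 12091 and 6977 in the endothelial and 177, 155 and 97.7 in the mural libraries (-5.26 ± 0.66, adjusted p = 0.00183). *Cav1*, the coat protein of caveolae, was -3.33 ± 0.37, adjusted p = 0.00109.

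Contractile genes were called toward mural cells in 5 of 13 cases and toward endothelial cells in 1, with a median of 2.11. *Myl9*, a regulatory myosin light chain, stood at 33861, 37119 and 35158 in the mural and 563, 268 and 380.1 in the endothelial libraries (6.51 ± 0.27, adjusted p = 2.8e-05). *Tpm2* (5.75 ± 0.69, adjusted p = 0.00152), *Mylk* (3.13 ± 0.27, adjusted p = 3.4e-04) and *Cald1* (2.48 ± 0.11, adjusted p = 3.2e-05) were also mural. *Acta2*, smooth muscle actin, stood at 455, 1065 and 933 in the mural and 1.77, 58.2 and 7.54 in the endothelial libraries (6.10 ± 1.12, adjusted p = 0.00909), with an adjusted p of 0.0503 without library Mu-343. The markers of mature smooth muscle *Myh11* and *Tagln* were low, with *Tagln* at 21.0, 41.1 and 71.4 in the mural and 8.86, 7.10 and 27.1 in the endothelial libraries, and neither was called (adjusted p = 0.277 and adjusted p = 0.303). *Smtn*, smoothelin, was the gene on the endothelial side, at 7704, 11908 and 8956 in the endothelial and 1057, 1031 and 1375 in the mural libraries (-3.03 ± 0.23, adjusted p = 2.2e-04).

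Both populations expressed the basement membrane, with different chains. Of 17 genes, 4 were higher in mural and 7 in endothelial cells, with a median of -0.85. *Lama2* (7.03 ± 0.77, adjusted p = 0.00101) and *Lamc3* (7.50 ± 1.12, adjusted p = 0.00385) were the laminin chains split toward mural cells, whereas *Lama4* was shared, at 14934, 12250.4 and 18075 in the mural and 18159, 16895 and 14632 in the endothelial libraries (-0.15 ± 0.17). The chain *Lamc1* was higher in mural cells too, by less than 10-fold (1.25, adjusted p = 0.00342). *Lama5* (-6.51 ± 1.37, adjusted p = 0.0159) and *Lamb2* (-1.15 ± 0.27, adjusted p = 0.0232) were the chains higher in endothelial cells. The *Lama5* call was lost with edgeR (adjusted p = 0.0801) and without library Mu-343 (adjusted p = 0.0638), library Ec-343 (adjusted p = 0.0574) or library Ec-346 (adjusted p = 0.0587), and that of *Lamb2* without library Mu-340 (adjusted p = 0.0623), library Mu-343 (adjusted p = 0.0731), library Mu-346 (adjusted p = 0.0741), library Ec-340 (adjusted p = 0.0584) or library Ec-343 (adjusted p = 0.0595). *Col15a1* (4769-fold higher in endothelial cells with a 95% counting interval of 856 to 188353, adjusted p = 2.5e-04) and *Col18a1* (-5.74 ± 0.44, adjusted p = 2.2e-04), collagens of the basement membrane zone, were split toward endothelial cells, and *Hspg2*, perlecan, was endothelial (-3.06 ± 0.22, adjusted p = 1.8e-04). *Col4a1*, the main network collagen, was shared although its libraries did not overlap, at 27817, 30074 and 26099 in the endothelial and 17568, 16132 and 18163 in the mural libraries (-0.69 ± 0.10). Of 20 genes of fibrillar and interstitial matrix, 10 were higher in mural and none in endothelial cells and 10 were not called, with a median of 3.23. *Col3a1* stood at 5616, 5045 and 6849 in the mural and 236, 2.84 and 58.8 in the endothelial libraries (7.26 ± 1.30, adjusted p = 0.00830), and *Col6a2* (at least 596-fold higher in mural cells, adjusted p = 4.9e-04) and *Col6a3* (at least 489-fold higher in mural cells, adjusted p = 3.3e-04) had no endothelial read. Elastin, *Eln*, was low and not called (-0.58 ± 1.20, adjusted p = 0.777).

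Integrins, the receptors for this matrix, were called for 7 of 16 subunits toward mural and for 3 toward endothelial cells, with a median of 1.56. *Itga11*, a collagen receptor subunit, stood at 935, 1174 and 1641 in the mural and 0, 1.42 and 0 in the endothelial libraries (2415-fold higher in mural cells with a 95% counting interval of 433 to 95379.6, adjusted p = 3.1e-04), and *Itgb5* was 10.15 ± 0.86, adjusted p = 3.3e-04. On the endothelial side *Itga2* was -7.68 ± 1.11, adjusted p = 0.00341 and *Itga5* -2.97 ± 0.51, adjusted p = 0.00658. The common partner *Itgb1* was shared, at 15559, 14904 and 20239 in the mural and 14617, 14916 and 14694 in the endothelial libraries (0.18 ± 0.14). Of 15 matrix proteases and inhibitors, 5 were mural, none endothelial and the median was 0.28. Besides *Mmp9* these held the plasminogen activator *Plat* (2.32 ± 0.30, adjusted p = 0.00192) and the inhibitor *Serpine2* (4.26 ± 0.26, adjusted p = 9.6e-05).

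Transcription factors of the endothelial lineage were nearly all higher in endothelial cells. Of 24 endothelial-linked factors, 21 were higher in endothelial and none in mural cells, with a median of -4.70. The ETS factors *Erg*, at 5183, 6196 and 5411 in the endothelial and 10.5, 1.14 and 96.7 in the mural libraries (-8.70 ± 1.21, adjusted p = 0.00288), and *Fli1* (-4.44 ± 0.23, adjusted p = 6.7e-05) were split, but *Ets1* was shared, at 50743, 46295 and 50126 in the mural and 36571, 43416 and 37661 in the endothelial libraries (0.33 ± 0.10). *Sox7* (-10.21 ± 1.61, adjusted p = 0.00473), *Sox17* (-8.19 ± 1.38, adjusted p = 0.00633) and *Sox18* (-8.77 ± 1.17, adjusted p = 0.00237), the SOXF factors of endothelial identity, were all split. *Foxl2*, known from the ovary, had no mural read, at 1081, 1056 and 706 in endothelial libraries (at least 1336-fold higher in endothelial cells, adjusted p = 2.9e-04). *Foxp1* was shared (-0.60 ± 0.14) and *Epas1*, a hypoxia-inducible factor, was neither (-0.26 ± 0.33, adjusted p = 0.634).

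Of 24 mural-linked factors, 13 were higher in mural and 1 in endothelial cells, with a median of 3.66. *Tbx18*, a pericyte and smooth muscle factor, stood at 1463, 1928 and 1466 in the mural and 0, 1.42 and 0 in the endothelial libraries (3128-fold higher in mural cells with a 95% counting interval of 561 to 123533, adjusted p = 2.2e-04), and *Tbx2* was 7.69 ± 1.42, adjusted p = 0.00927. *Foxd1* (1899-fold higher in mural cells with a 95% counting interval of 341 to 75023, adjusted p = 3.3e-04) and *Zic1* (4.93 ± 0.49, adjusted p = 6.5e-04) were split toward mural cells, as was *Zic4* (1925-fold higher in mural cells with a 95% counting interval of 533 to 15896, adjusted p = 2.1e-04). The forkhead factors *Foxf2* (0.07 ± 0.24) and *Foxc1* (0.35 ± 0.26), both required for brain pericytes, were shared within 2-fold, *Foxf2* at 2934, 2758 and 3548 in the mural and 2302, 3821 and 2825 in the endothelial libraries. The libraries of the 2 populations overlapped for both factors. The factor on the endothelial side was *Tbx3* (-1.91 ± 0.54, adjusted p = 0.0451), whose call was lost with edgeR (adjusted p = 0.0626), with no minimum level (adjusted p = 0.0644), with microglia in the fit (adjusted p = 0.0833) and without any of the 6 libraries (adjusted p up to 0.123).

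Genes that mark arteries, veins and sprouting tips within the endothelium were higher in endothelial cells in 10 of 17 cases and in mural cells in 1, with a median of -4.90. *Nr2f2*, the factor of venous identity, was the gene on the mural side, at 9253, 11434 and 7688 in the mural and 1285, 1414 and 1119 in the endothelial libraries (2.88 ± 0.21, adjusted p = 1.9e-04). *Ephb4*, the other venous gene named here, was endothelial (-2.44 ± 0.33, adjusted p = 0.00250), as were the arterial *Sema3g* (5164-fold higher in endothelial cells with a 95% counting interval of 927 to 203953, adjusted p = 2.9e-04) and the tip gene *Kcne3* (at least 2043-fold higher in endothelial cells, adjusted p = 3.3e-04). *Efnb2* (-0.96 ± 0.39, adjusted p = 0.135) and *Gja4* (-0.98 ± 0.22, adjusted p = 0.0199), of arteries, were expressed in both and not called. Of 21 guidance genes, 2 were higher in mural and 8 in endothelial cells, with a median of -1.55. The mural count is close to the share over all genes tested, which was 7.55% for mural and 8.57% for endothelial cells. The semaphorin receptor *Plxnd1* was endothelial (-4.97 ± 0.46, adjusted p = 4.7e-04), with *Efna1* (-4.38 ± 0.25, adjusted p = 8.2e-05), and *Sema6d* was mural, at 17939.9, 17092 and 19845 in the mural and 5390.2, 8152 and 5547 in the endothelial libraries (1.55 ± 0.18, adjusted p = 0.00142). The *Sema6d* call was lost when microglia (adjusted p = 0.101) or all 12 libraries (0.0555) shared the fit.

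**Figure D3:**
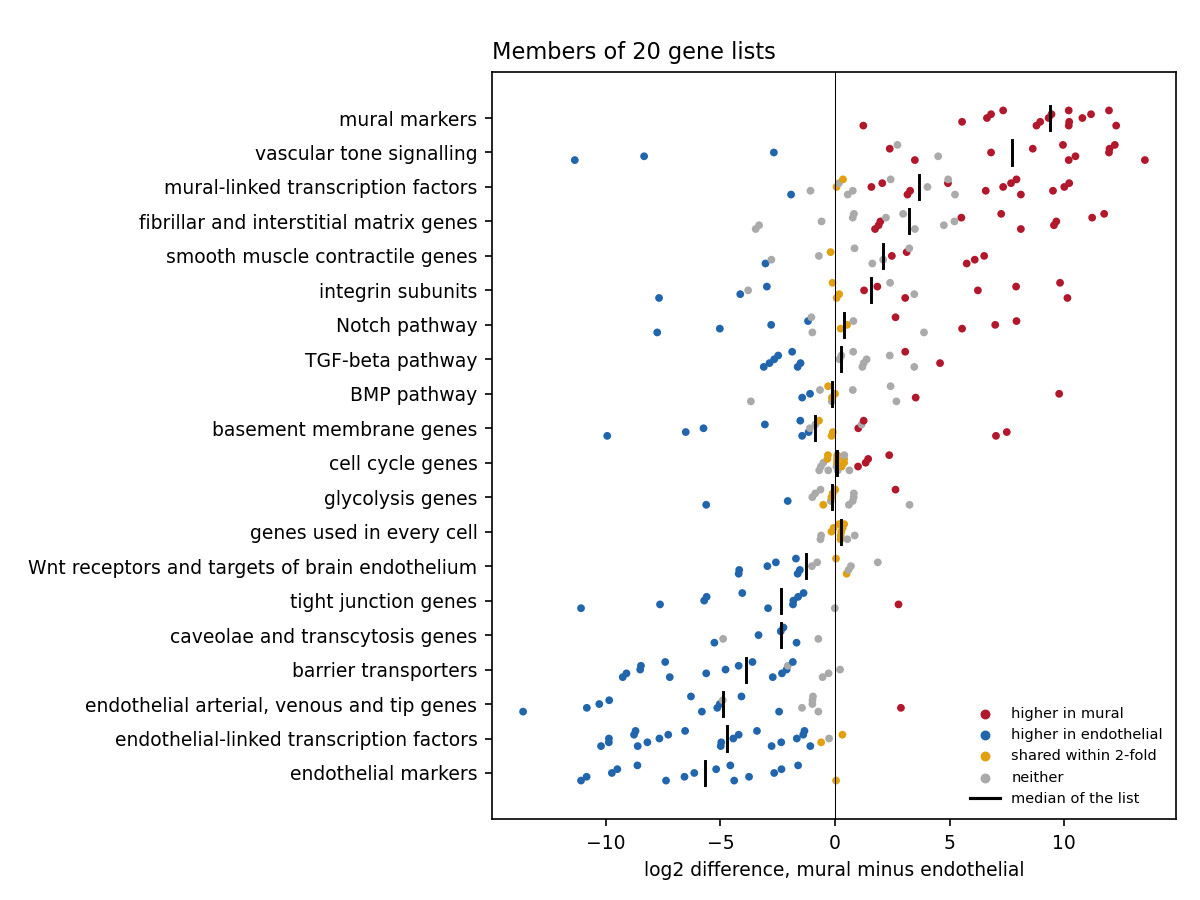
Log2 difference (mural minus endothelial) of each tested gene in 20 lists; red, blue and ochre points were higher in mural cells, higher in endothelial cells or shared within 2-fold, grey points neither, and black bars are the list medians. Medians run from 9.39 for mural markers to -5.66 for endothelial markers, with cell cycle, glycolysis and genes used in every cell near 0.

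Markers of other cell types were read in the same libraries, and their part in the results above was not tested. Of 12 microglia markers, 2 were tested and none was called, and their summed level was 23 to 182.5 in all 6 libraries. Of 9 erythroid markers tested, 7 were higher in endothelial cells (6 with a block for the brain), the summed level being 13392 to 34610.1 there and 252.7 to 598.1 in mural libraries. *Hbb-bs*, a globin, stood at 5718, 4896 and 12992 in the endothelial and 47.2, 111 and 39.5 in the mural libraries (-6.89 ± 0.53, adjusted p = 2.4e-04). The list of 15 neural markers summed to 22410 to 43280 in mural, 3468 to 6164 in endothelial and 129489 to 139914 in neural libraries, and 2 of them were called, both higher in mural cells. These were *Fabp7*, a fatty acid-binding protein of radial glia, at 27589, 34842 and 18397 in the mural and 1311, 471 and 1727 in the endothelial libraries (4.67 ± 0.47, adjusted p = 7.2e-04), and the glutamate transporter *Slc1a3* (8.08 ± 0.72, adjusted p = 4.0e-04), while the neuronal *Tubb3* (0.90 ± 0.31, adjusted p = 0.0870) and *Dcx* (-0.62 ± 0.57, adjusted p = 0.503) were not called. Of 9 fibroblast markers 6 were tested and 3 were higher in mural cells, which are *Col1a1* (478-fold higher in mural cells with a 95% counting interval of 132 to 3948, adjusted p = 0.00177), *Col1a2* and *Dcn* (at least 66.6-fold higher in mural cells, adjusted p = 0.00468). The whole list of fibroblast markers summed to 3565 to 5007 in mural and 0 to 147.6 in endothelial libraries, while *Pdgfra* and *Dpt* were too low to be tested. Among 5 choroid plexus markers only *Enpp2*, autotaxin, was called, at 11276, 8859 and 8562 in the endothelial and 125, 18.3 and 0 in the mural libraries (-9.46 ± 1.51, adjusted p = 0.00501), and the defining *Ttr* was at most 40.7. None of 3 platelet markers tested was called, and of 3 lymphatic markers *Lyve1* (5.34 ± 1.18, adjusted p = 0.0192) and *Pdpn* (3.38 ± 0.80, adjusted p = 0.0251) were higher in mural cells. The *Lyve1* call was lost with edgeR (adjusted p = 0.0545) and without library Mu-340 (adjusted p = 0.0877), library Mu-343 (adjusted p = 0.0545) or library Mu-346 (adjusted p = 0.0704), and that of *Pdpn* with edgeR (adjusted p = 0.0646) and without library Mu-340 (adjusted p = 0.0941), library Mu-343 (adjusted p = 0.0954), library Mu-346 (adjusted p = 0.0675), library Ec-343 (adjusted p = 0.0621) or library Ec-346 (adjusted p = 0.0715). Of 11 immediate early genes that rise during dissociation, 5 were higher in mural cells and 1 in endothelial cells, with a median of 1.05 and a sum of 135101 to 221816 against 65426 to 116084. *Fos* stood at 37497, 45041 and 56343 in the mural and 7665, 8723 and 12708 in the endothelial libraries (2.27 ± 0.22, adjusted p = 5.8e-04).

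Genes of general cell functions were shared to differing extents, against 11.8% of all genes tested and 35.8% of those with a mean of 1000 to 10000. Of 12 genes used in every cell, 8 were shared and none was called in either direction, with a median of 0.25. Actin, *Actb*, stood at 254789, 276055 and 213592 in the mural and 202869, 216996 and 205599 in the endothelial libraries (0.24 ± 0.09). Of 20 cell cycle genes, 8 were shared, 4 were higher in mural and none in endothelial cells, with a median of 0.11. The proliferation marker *Mki67* (0.10 ± 0.21) and *Top2a* (0.09 ± 0.23) were shared, *Mki67* at 11699.5, 9136 and 7107 in the mural and 9157, 7110.3 and 9512 in the endothelial libraries. *Ccnd2*, a D-type cyclin, was mural, at 43962, 48786 and 32569.9 in the mural and 7362, 8598 and 7996 in the endothelial libraries (2.37 ± 0.16, adjusted p = 1.6e-04), while *Ccnd1* (-0.69 ± 0.20, adjusted p = 0.0510) was not called. The other mural calls, *Ccnb1*, *Ccnb2* and *Bub1*, differed by less (1.45 ± 0.35, adjusted p = 0.0268, 1.34 ± 0.26, adjusted p = 0.0121 and 1.01 ± 0.28, adjusted p = 0.0458). With a block for the brain *Ccnb1* and *Bub1* were not called (adjusted p = 0.0515 and 0.0809), nor was *Bub1* with no minimum level (adjusted p = 0.0671), and the calls were lost without library Mu-340 (adjusted p = 0.109), library Mu-343 (adjusted p = 0.0584), library Mu-346 (adjusted p = 0.0779) or library Ec-346 (adjusted p = 0.0630) for *Ccnb1*, without library Mu-340 (adjusted p = 0.0607) for *Ccnb2* and without library Mu-340 (adjusted p = 0.143), library Mu-346 (adjusted p = 0.144), library Ec-343 (adjusted p = 0.0960) or library Ec-346 (adjusted p = 0.124) for *Bub1*. Of 16 glycolysis genes, 4 were shared, 1 was mural and 2 endothelial, with a median of -0.12, and 22.3% of all genes with a mean of 1000 to 10000 were called. Of lactate dehydrogenase *Ldha* was shared (0.02 ± 0.14) and *Ldhb* mural, at 7929, 8693 and 6279 in the mural and 2637, 599 and 1119 in the endothelial libraries (2.64 ± 0.49, adjusted p = 0.00911).

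To find genes at a like level in both vessel cell types and higher there than in microglia, shared genes were kept when the lowest of the 6 vessel libraries was over 4-fold above the highest microglia library, which chooses them by their levels and so is a description. There were 62 such genes (0.328% of those tested), 61 of them protein-coding, and 31 were also over 4-fold above the neural libraries. Ranked by mean normalized count per kilobase of exon over the 6 libraries, the first was *Tmsb10*, an actin-binding thymosin, with 73764 per kilobase, and its normalized counts were 77979, 87087 and 66612 in the mural and 133475, 82818 and 116766 in the endothelial libraries, against a microglia mean of 9941. *Gng11*, a G-protein γ subunit, followed with 15002 per kilobase, at 16444, 15849 and 16151 in the mural and 11881, 8621 and 13776 in the endothelial libraries. *Igfbp7*, a secreted protein that binds IGF, had 10839 per kilobase, at 10755, 9921 and 16702 in the mural and 9815, 17843 and 13589 in the endothelial libraries. Its libraries of the 2 populations overlapped, and the microglia mean was 20.6 and the neural mean 4.16 normalized counts. Of the following genes *Crip2* (8815 per kilobase), *Cnn3*, a calponin (6434), *Ppic*, a cyclophilin (6129), and *Selenom*, a selenoprotein (4451), are not bound to vessels by name. *Id3* (5862), *Ets1* (5207) and *Hes1* (3532) are transcriptional regulators of BMP, ETS and Notch signalling, and *Tmem204* (3075) and *Col4a1* (3034) completed the first 12. The microglia mean was 2846 for *Ets1*, so that some of these genes were well above 0 in microglia too. *Tmem204*, a membrane protein of vessels, stood at 6304, 8014 and 7572 in the mural and 5886, 7728 and 8367 in the endothelial libraries, with a difference of 0.00 ± 0.18, against a microglia mean of 26.9 and a neural mean of 3.15. *Emcn*, endomucin, held to be an endothelial marker, was at 5508, 4466 and 4967 in the mural and 6317, 3837 and 4561 in the endothelial libraries (0.05 ± 0.22). Without library Mu-340 the number of such genes was 37.

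**Figure D4:**
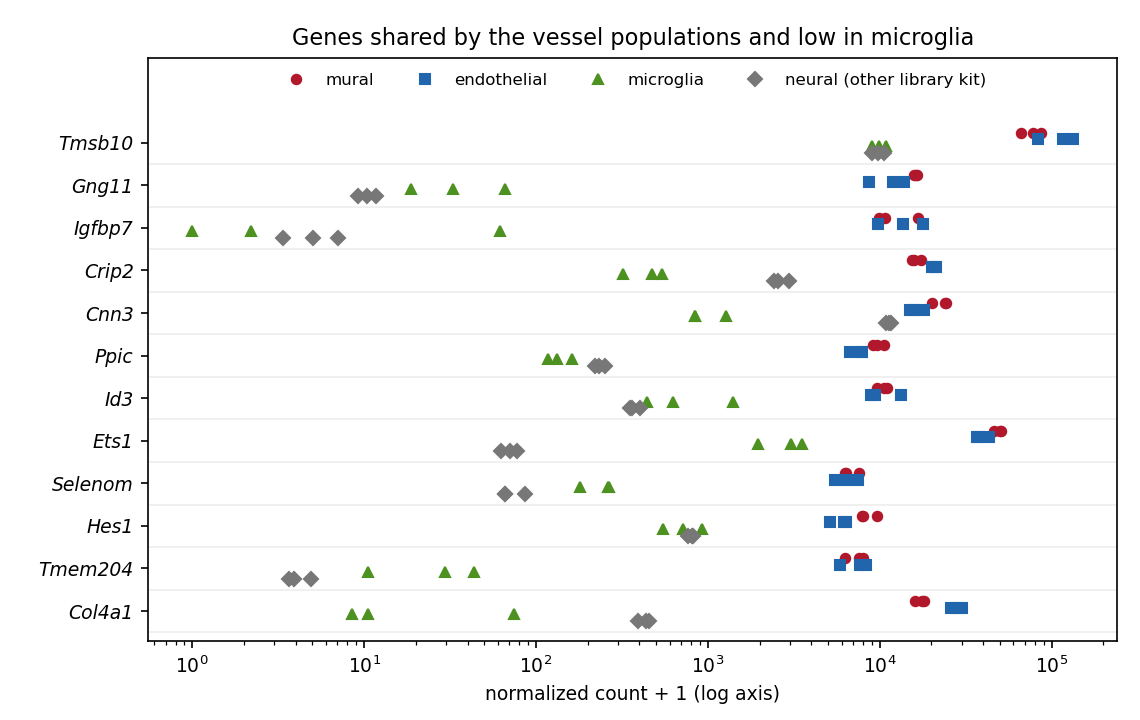
Normalized counts (log10 scale, 1 added) of the 12 shared genes with the most counts per kilobase, as points for each of the 3 mural, 3 endothelial, 3 microglia and 3 neural libraries. Mural and endothelial points lie over 4-fold above the microglia points for all 12 genes, and for 7 of the 12 the mural and endothelial points do not overlap. Neural libraries were made with another kit.

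The same contrast was read in single cells of wild-type brains at E14.5, sorted into wells by gates for high PDGFRβ or for high PECAM1 and CD102, each with CD45 and CD41 low or negative, and sequenced with mCEL-Seq2, which counts transcripts. These gates, as written for each well, name no CD11b, and that of mural cells no CD102. Cells with over 1500 transcripts were summed for each of 3 plates, giving 210 mural cells (95, 105 and 10 on the plates) and 225 endothelial cells (120, 92 and 13), with medians of 6885.2 and 6408 transcripts. edgeR called 686 of 7458 genes higher in the mural gate (9.2%) and 750 in the endothelial gate (10.1%). The third plate was thin, and without plate 1 or plate 2 all calls together came to 579 and 598. Of the 836 bulk split mural genes 230 could be tested in the cells, 225 had the same sign and 217 were called mural. Of the 834 bulk split endothelial genes 209 could be tested, all 209 had the same sign and 196 were called endothelial. Without plate 3 this last count was 325. The filter on low counts lets a split gene through mainly by the gate where it is high, which favours the same sign, so these counts describe the split genes that passed and are no independent support of their direction. The differences were smaller in the cells, with a median of 3.76 for the mural genes against 6.50 in bulk and -4.14 for the endothelial genes against -5.26 in bulk. The measures are unlike, edgeR on summed transcripts and limma on log2(normalized count + 1), so their sizes are not directly comparable. Of the 2222 shared genes, 1970 were tested, of which 19 were called mural and 12 endothelial, and of the 62 shared genes above microglia 59 were tested, with 3 called mural and 0 endothelial.

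A few genes differed between the readouts. *Slc1a3*, split in bulk, was -0.21 in the cells on the log2 scale (adjusted p = 0.870, edgeR), whereas *Fabp7* was called mural there as well (1.77, adjusted p = 0.0101). *Mpv17l*, a mitochondrial membrane protein, was the only split gene called in the opposite direction. In bulk it stood at 107, 68.5 and 111 in the mural and 1.77, 21.3 and 1.51 in the endothelial libraries (4.13 ± 1.13, adjusted p = 0.0423), a call lost with a block for the brain (adjusted p = 0.0881), with edgeR (adjusted p = 0.131), with no minimum level (adjusted p = 0.0808) and without library Mu-340 (adjusted p = 0.135), library Mu-343 (adjusted p = 0.0972), library Mu-346 (adjusted p = 0.128), library Ec-340 (adjusted p = 0.0881) or library Ec-346 (adjusted p = 0.0959). In the cells its summed transcripts were 13, 20 and 3 on the mural and 57, 40 and 2 on the endothelial plates (log2 difference -1.39, adjusted p = 0.00285). Shared in bulk, *Emcn* was -0.76 in the cells and not called (adjusted p = 0.0254), and *Ets1* was -0.08 (adjusted p = 0.876). *Lpar6*, a lysophospholipid receptor shared in bulk (-0.34 ± 0.28), was higher in the endothelial gate (-1.83, adjusted p = 6.8e-04).

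**Figure D5:**
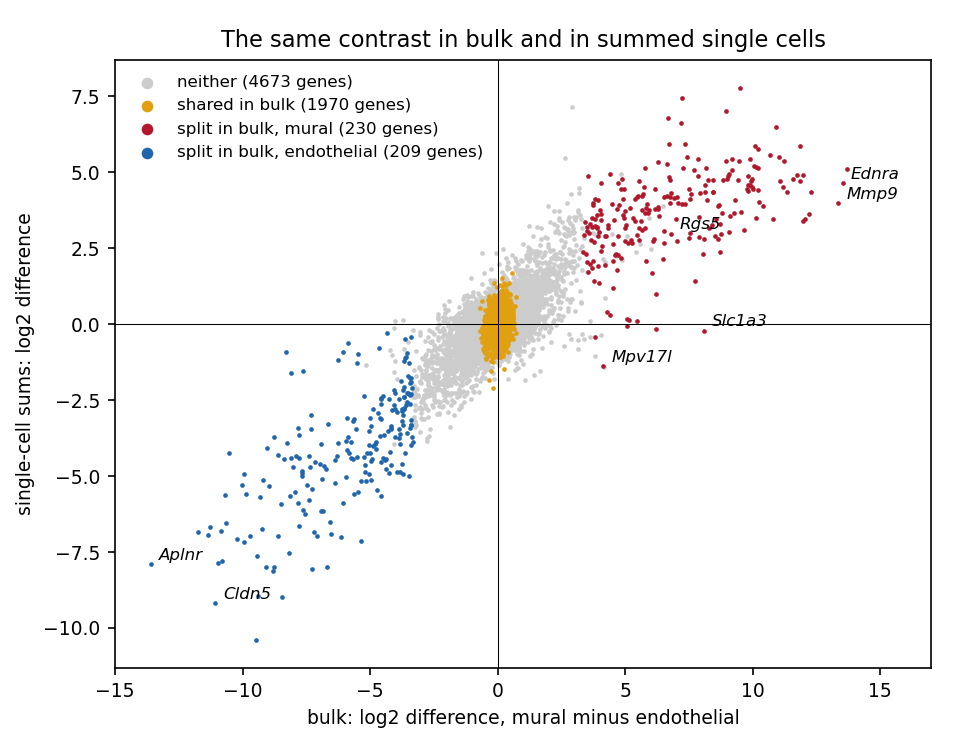
Log2 difference (mural minus endothelial) in summed single cells against that in bulk for genes tested in both; red, blue and ochre points are the 230 mural split, 209 endothelial split and 1970 shared genes of the bulk libraries, grey points the rest. All blue points and 225 of 230 red points have the sign of the bulk libraries, which the filter on low counts favours, and *Slc1a3* and *Mpv17l* lie apart from the other red points.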

How the data were processed

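Bulk RNA-seq libraries of mural and endothelial cells from E14.5 brains were compared, 3 of each. The authors deposited normalized counts, a linear signal made by dividing the reads of each gene by a factor for its library (100% of 123944 values up to 100 reads were whole within 0.01). The submitters' processing notes name BWA 0.6.2-r126, STAR, featureCounts, DESeq2 and the build mm10, without saying which served which data. Whether strand was used in counting is not given in the sources used here, so a gene and an overlapping or antisense partner may share reads. For the single cells the authors deposited transcript numbers, which are expected counts corrected for identifiers drawn more than once. They were summed for each plate and gate and rounded to whole numbers.

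Genes whose mean over the mural and endothelial libraries in the fit reached 10 normalized counts were tested with limma 3.58.1 (R 4.3.3), its variance prior following the mean level, after log2 transformation with a pseudocount of 1. The test was two-sided, with Benjamini-Hochberg adjustment over all 18876 genes tested. Adding 1 understates the difference of low genes. edgeR 4.0.16 with TMM was run on the recovered reads and called 1077 mural and 1201 endothelial genes. It was also the test for the single-cell sums, after its own filter on low counts. DESeq2 1.42.0 was an alternative. Gene positions and exon lengths are from the GENCODE annotation of GRCm38. Python 3.11.15, pandas 2.3.3, numpy 2.4.6 and matplotlib 3.10.9 were used. The methods were tested on simulated data.

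The paper describes the populations as collected at the same time from E14.5 brains, and equal numbers in the library names were taken to mark 1 brain, which the labels do not state. *Xist* was 7846, 89.0 and 18.8 in mural (Mu-340, Mu-343 and Mu-346) and 8764, 21.3 and 3.02 in endothelial libraries (Ec-340, Ec-343 and Ec-346), and *Ddx3y* was 0, 5921 and 4104 and 0, 3711 and 3030. The residuals of equal numbers correlated at 0.00423, -0.0363 and -0.0132 across genes. Nothing in the labels ties the wells of a plate to a brain.

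Named genes were the 15 protein-coding genes with the largest split on each side and a mean of at least 100 in the higher population, members of 37 gene lists, the 12 shared genes above microglia with the most counts per kilobase, the genes that define the sort, and split genes called in the opposite direction in the cells. The libraries were taken by their labels, while the comparison and its gene lists were chosen with earlier results of these data known. Alternatives covered the pseudocount, the minimum, the normalization, the libraries in the fit, a block for the brain, the tool and each library left out. Promoter windows are from RefSeq on GRCm38.p6. Intervals of read ratios cover counting error only. A comparison of promoter sequence between the gene sets was void, since under 80% of each set had a window (63.5% of split mural, 61.3% of split endothelial, 77.7% of shared and 63% of all genes tested).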

Additional observations from a re-analysis of the deposited data

How the results depend on the processing

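With a block for the brain, 1150 mural and 1271 endothelial genes were called, 698 and 657 were split, 1758 were shared and 50 were shared and above microglia. Of the 3042 calls 2342 were kept under the block and 700 were lost. With all 12 bulk libraries in the fit there were 2211 mural and 2519 endothelial calls. edgeR on recovered reads gave 544 split endothelial genes. Of the 3042 calls, 2260 were also made by edgeR and 2906 by DESeq2 in the same direction, and none in the opposite direction. An interval within 1.5-fold left 301 shared genes, 13 of them above microglia. A threshold of 2-fold or 10-fold above microglia gave 110 or 36 genes. With each library left out in turn, mural calls ran from 769 to 1389, endothelial calls from 1129 to 1335, split mural genes from 502 to 786, split endothelial genes from 565 to 721, shared genes from 1423 to 2103 and those above microglia from 37 to 62. In the single cells DESeq2 called 762 genes. Without a filter on low counts 2211 were called there, and 347 mural and 397 endothelial split genes were called the same way. With each plate left out, the calls ran from 579 to 2015, the value without plate 2 being 598, and the split genes called the same way from 147 to 286 (mural) and from 169 to 325 (endothelial). All other alternatives kept these counts within 1.5-fold. The tools edgeR and DESeq2 gave no interval for the shared genes, and the list above microglia was not remade without the minimum or with more libraries in the fit. Of 215 genes named in the text and tested, not counting *Lamc1*, 165 were called and none of these reversed in direction under any alternative. The median difference of all genes moved from -0.0039 to between -0.0379 and 0.0297 under other scalings, and 46.2% to 47.9% of calls were on the mural side. Among genes with a mean under 100 none could be shown to be shared, at a median standard error of 1.52, and depth itself was not varied.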

Other observations

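Other mural markers not described above also differed widely. *Vtn*, the adhesion protein vitronectin, stood at 48345, 46326 and 58720.1 in the mural and 88.6, 135 and 122 in the endothelial libraries (8.80 ± 0.23, adjusted p = 1.0e-05), and *Ndufa4l2*, a mitochondrial protein, stood at 26927, 27061 and 26986 in the mural and 308, 311 and 207 in the endothelial libraries (6.64 ± 0.22, adjusted p = 1.4e-05). *Des*, the muscle intermediate filament desmin, was at least 320.0-fold higher in mural cells, adjusted p = 5.2e-04, and *Atp13a5*, a P-type ATPase of pericytes, was at least 1586-fold higher in mural cells, adjusted p = 1.3e-04. Neither had an endothelial read. *Cspg4*, the proteoglycan NG2, was 10.20 ± 1.46, adjusted p = 0.00319, and *Anpep*, the aminopeptidase CD13, was 9.33 ± 1.05, adjusted p = 0.00113. In contrast *Mcam*, CD146, was present in both, at 10157, 8498 and 11719 in the mural and 5287, 3539 and 4111 in the endothelial libraries (1.24 ± 0.20, adjusted p = 0.00543), and its call was lost when microglia (adjusted p = 0.172) or all 12 libraries (0.108) shared the fit.

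Among the endothelial-linked factors not described above, *Tal1*, a factor of blood and vessel formation, stood at 845, 1251 and 1336 in the endothelial and 0.870, 3.42 and 1.88 in the mural libraries (-8.61 ± 0.72, adjusted p = 3.2e-04), *Lyl1* at 1267, 1979 and 1065 in the endothelial and 0, 2.28 and 0 in the mural libraries (3039-fold higher in endothelial cells with a 95% counting interval of 841 to 25090.1, adjusted p = 3.3e-04) and their partner *Lmo2* at 7667, 10132 and 8628 in the endothelial and 222, 277 and 339 in the mural libraries (-4.99 ± 0.26, adjusted p = 5.9e-05). *Gata2* was -6.54 ± 1.23, adjusted p = 0.0102. The haemoglobin genes were also higher in the endothelial libraries, as given above, and their part in these values was not tested.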
